A study of Rattus norvegicus with 9 samples.

Results

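Ribosome biogenesis factors are the nucleolar proteins that make pre-ribosomal RNA and turn it into ribosomal subunits, and the mRNAs of 51 of them were followed in rat chondrocytes. The members were a named list of gene symbols looked up in the deposited expression table, which holds 17588 genes. Of the 51, 50 were matched by symbol, and Ebna1bp2 was not analysed here. The members were chosen by function with the FPKM differences between these 3 groups already known, so their values and counts below are a description. All 50 members passed the filter on low values, which asked for an FPKM of 1 or more in 3 or more libraries and kept 11732 genes.

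The cells were wild-type primary rat chondrocytes, released from cartilage with collagenase and grown in dishes, and 3 groups of 3 poly(A)-selected RNA libraries were sequenced. The co-culture group (co-cultured cells below) received IL-1β, an inflammatory cytokine used to model arthritic cartilage, and was then grown below dermal fibroblasts held in the upper chamber of a transwell insert. The IL-1β group (IL-1β cells) received the cytokine without fibroblasts. The control group (control cells) had neither. A group with fibroblasts and no cytokine was not analysed here. The sources used here give neither the strain, age and sex of the animals nor the cytokine dose and the culture times. They do not say whether each replicate was its own animal or dish, so the spread behind the p-values may be technical.

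Ribosome production starts in the nucleolus, where RNA polymerase I copies the ribosomal DNA into a long precursor RNA. Small nucleolar ribonucleoproteins (snoRNPs) modify this RNA, the small-subunit processome and the large-subunit assembly factors cut and fold it around ribosomal proteins, and the last factors accompany each subunit to the cytoplasm. Most of these roles were worked out in yeast and in human cells. The pathway is known as a large consumer of energy that growing and dividing cells run at a high rate, and many of its genes are known targets of the transcription factor Myc, which binds E-box sequences.

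The sum of FPKM (mapped fragments scaled to transcript length and library size, so that genes can be compared) ran from 809839 to 811665 in co-cultured libraries, from 796262 to 832248 in IL-1β libraries and from 771058 to 782435 in control libraries. Because these sums differed between groups, each result was also computed after scaling every library to a common sum. That scaling moved the median log2 difference over all tested genes by -0.0588 between IL-1β and control cells, by 0.0015 between co-cultured and IL-1β cells, and by -0.0575 between co-cultured and control cells. Absolute sequencing depth is unknown from such values. Pearson's r between libraries over log2 levels, a description across genes, was 0.994 to 0.9949 within groups and 0.9612 to 0.9897 between groups. All 8 chondrocyte markers checked (among them Col2a1, Acan and Sox9) were present, with summed levels of 616.4 to 672.9 FPKM in co-cultured, 437.3 to 456.9 in IL-1β and 1891 to 1975 in control cells. All 8 skeletal muscle markers were also present, at summed levels of 483.0 to 531.4 FPKM in co-cultured, 504.5 to 535.9 in IL-1β and 222.8 to 229.9 in control cells. Of 8 dermal fibroblast markers, 4 reached a mean of 1 FPKM and the other 4 (Dpp4, Pi16, Cd34 and Clec3b) stayed at or below 1.31 FPKM in every library. The fibroblast sum was 1227 to 1291 FPKM in co-cultured, 1277 to 1324 in IL-1β and 2029 to 2143 in control cells, most of it Col1a1, which chondrocytes grown in dishes also express. Col1a1 averaged 967 FPKM in co-cultured, 877 in IL-1β and 1973 in control cells. Dcn, Twist2 and, on deposited FPKM only, Pdgfra instead had their lowest mean in control cells. In the same order of groups they averaged 194, 324 and 32.45 FPKM (Dcn), 37.7, 40.6 and 23.7 FPKM (Twist2) and 55.0, 59.2 and 53.1 FPKM (Pdgfra). For Pdgfra the co-cultured and control libraries overlapped, and on the common sum its means were 54.2, 58.3 and 54.8 FPKM. Of 7 macrophage markers 3 (Cd68, Laptm5 and Cd14) reached a mean of 1 FPKM over the 9 libraries, and none of 5 endothelial markers did. Adgre1 and Aif1 reached 1 FPKM in some libraries only. The part of these markers in the results below was not tested, and in bulk RNA fewer cells of a type cannot be told apart from less of its RNA per cell.

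Biogenesis factor mRNAs were mostly highest in co-cultured cells and lowest in IL-1β cells. Their summed level was 4542 ± 51.5 FPKM in co-cultured cells, 3930 ± 46.2 FPKM in IL-1β cells and 4162 ± 16.4 FPKM in control cells (SD, n = 3 each). As a share of all FPKM in a library, this was 0.560% ± 0.00656 in co-cultured, 0.484% ± 0.00977 in IL-1β and 0.537% ± 0.0021 in control cells. Npm1 alone made up a large part of the sum, and without it the sum was 2865 ± 40.5 FPKM in co-cultured, 2531 ± 25.8 FPKM in IL-1β and 2637 ± 9.11 FPKM in control cells. The members' mean levels over the 9 libraries ran from 5.503 FPKM for Heatr1 to 1533 FPKM for Npm1, with a median of 38.8 FPKM against 13.3 FPKM over all tested genes. By mean level, 13 members lay under 20 FPKM, 32 between 20 and 100 FPKM, and 5 (Npm1, Ncl, Fbl, Nop56 and Nop58) above 100 FPKM. The replicate spread was small, with a median coefficient of variation over members of 3.58% in co-cultured, 3.02% in IL-1β and 3.38% in control cells.

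**Figure D1:**
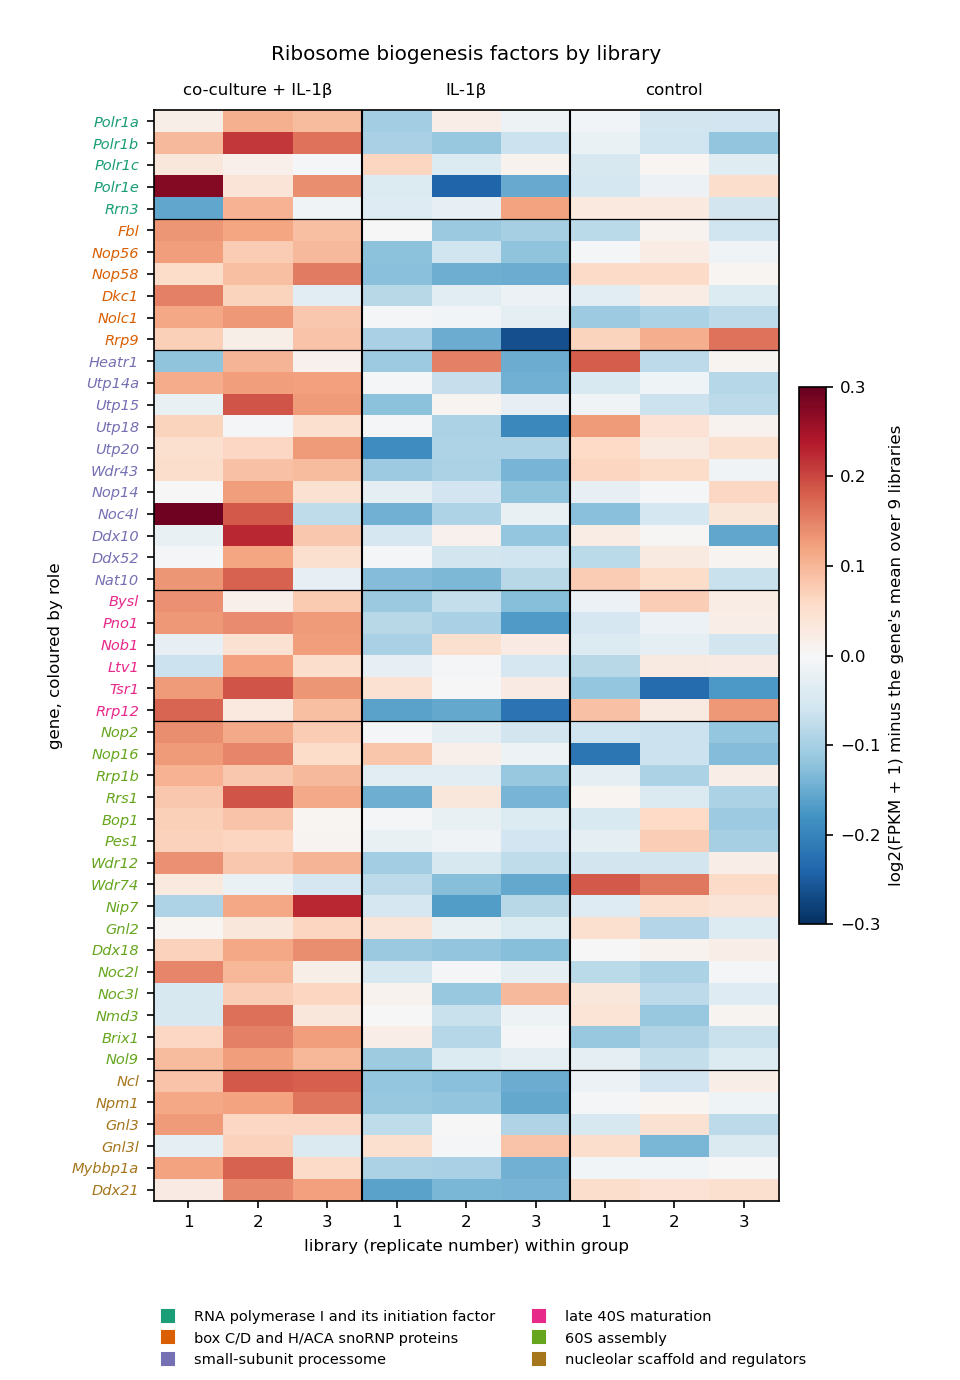
Each row is a member, ordered and coloured by role, and each column is a library, with the 3 co-culture libraries at the left, the 3 IL-1β libraries in the middle and the 3 control libraries at the right. Colour gives log2(FPKM + 1) minus the gene's mean over the 9 libraries, red above and blue below that mean, on deposited FPKM. Most rows are reddest in the co-culture libraries and bluest in the IL-1β libraries, and 48 of 50 members had a higher mean log2 level in co-cultured than in IL-1β cells on both scales.

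Between co-cultured and IL-1β cells, 27 of 50 members (54.0%) passed limma's threshold (Benjamini-Hochberg adjusted p under 0.05 over all 11732 genes) as higher, and 0 as lower. Over all tested genes the same call was made for 11.9% as higher and 10.1% as lower. At an unadjusted limma p under 0.05, 35 members were higher and 0 lower. The median log2 difference over members was 0.15, against 0.02 over all tested genes. All 3 co-cultured libraries lay above all 3 IL-1β libraries for 32 members and below them for 0, where the shares of all tested genes were 21.2% above and 16.5% below. With libraries scaled to a common sum the counts were again 27 higher and 0 lower, against 10.9% and 9.28% of all tested genes. Leaving out 1 of the 6 libraries in turn left 21 to 27 members called, and 21 of the 27 calls held in every setting tried. The other 6 calls all ended without IL-1β replicate 3, where the log2 difference was 0.23 for Nat10, 0.13 for Tsr1, 0.13 for Rrp1b, 0.18 for Rrs1, 0.15 for Brix1 and 0.12 for Gnl3. Each of these 6 also ended without at least 1 other library.

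Between IL-1β and control cells, 15 members (30.0%) passed as lower and 3 (6.0%) as higher, where over all tested genes 20.2% were called lower and 26.5% higher. The lower members were Nop56, Nop58, Rrp9, Utp18, Utp20, Wdr43, Bysl, Pno1, Rrp12, Wdr74, Ddx18, Ncl, Npm1, Mybbp1a and Ddx21, and the higher ones were Nolc1, Tsr1 and Nop16. The median log2 difference was -0.03 over members and 0.02 over all tested genes. The groups did not overlap for 18 members below control and 4 above, where the shares of all tested genes were 25.0% below and 31.3% above. With libraries scaled to a common sum, 20 members passed as lower and 1 (Tsr1) as higher, against 27.2% and 19.2% of all tested genes. There the member median was -0.09 and the median over all tested genes -0.04. That scaling also turned the split of all calls, 56.7% of which were higher on deposited FPKM and 41.4% on the common sum. Leaving out 1 library in turn left 10 to 14 members called lower. Without IL-1β replicate 3 the calls ended on Utp18 (log2 -0.11), Bysl (-0.12), Pno1 (-0.07), Ncl (-0.10) and Mybbp1a (-0.09). Each of these 5 also ended without at least 1 other library.

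Between co-cultured and control cells, which share libraries with both comparisons above, 19 members (38.0%) passed as higher and 1 (Wdr74) as lower, where over all tested genes 21.8% were called higher and 12.2% lower. The median log2 difference was 0.09 over members and 0.04 over all tested genes. The groups did not overlap for 22 members above and 1 below, against 29.6% and 17.0% of all tested genes. This comparison depended on scaling. On a common sum, 9 members passed as higher and 1 as lower, against 13.1% and 17.1% of all tested genes. There the member median was 0.03 against -0.01 over all tested genes, and the share of all calls that were higher moved to 43.4%, against 64.2% on deposited FPKM. Of the 19 higher calls, 6 (Polr1b, Nolc1, Tsr1, Nop2, Nop16 and Brix1) held in every setting tried.

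**Figure D2:**
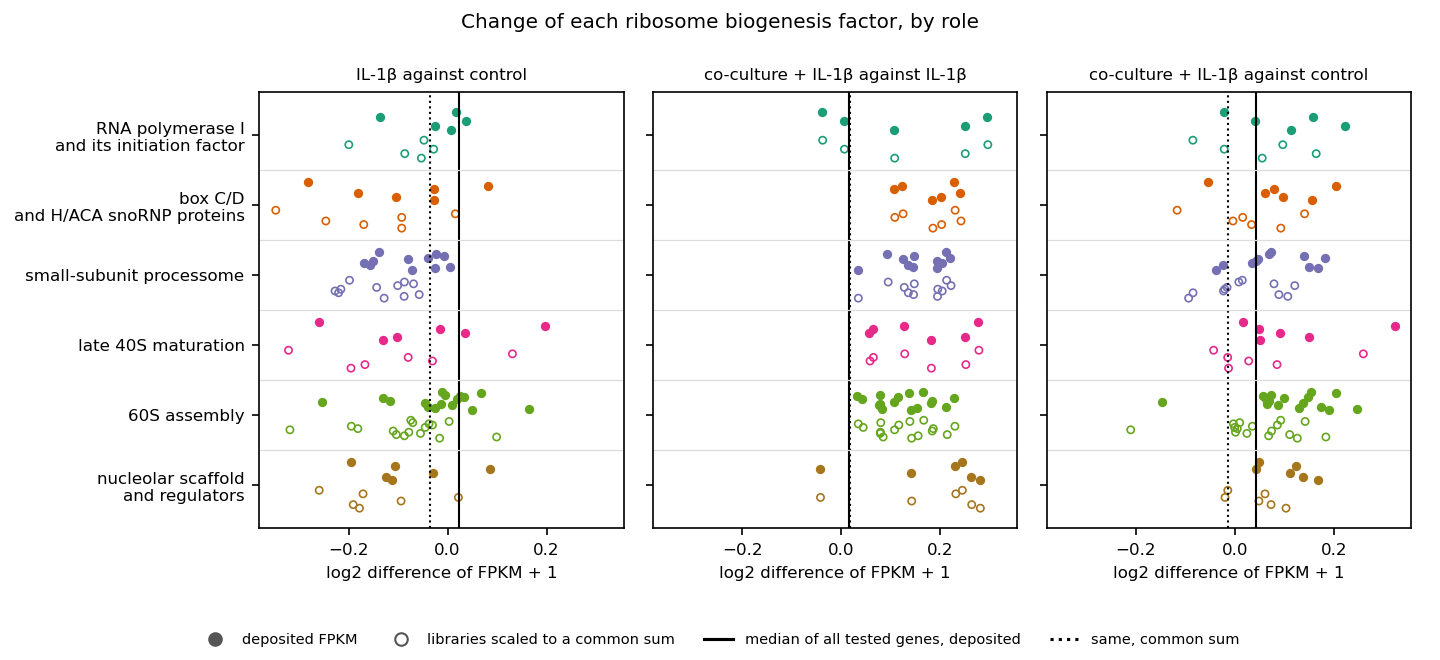
Each point is a member's log2 difference of FPKM + 1 in 1 comparison, by role, with filled points for deposited FPKM and open points for libraries scaled to a common sum, and vertical lines at the median of all tested genes on each scale. In the co-culture against IL-1β panel 48 of 50 members lie above 0 on both scales. In the IL-1β against control panel 35 of 50 lie below 0 on deposited FPKM and 45 of 50 on the common sum. In the co-culture against control panel 45 of 50 lie above 0 on deposited FPKM and 33 of 50 on the common sum.

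The promoters of the members were compared for the E-box hexamer CACGTG, a sequence that reads the same on both strands and that Myc and several other factors can bind. RefSeq promoter sequences of the rat assembly GRCr8, each 300 bases long from 250 before to 50 after the annotated gene start, were found for 45 of the 50 members (not Ddx52, Wdr43, Rrs1, Bop1 and Gnl2). The hexamer was present in 16 of 45 member promoters (35.6%). It was present in 970 of 10363 promoters of all tested genes (9.36%), in 446 of 4151 promoters of tested genes whose CpG count lay between the members' quartiles (10.7%), and in 2148 of 33469 promoters of the whole table (6.42%). Among related lists the share was 30 of 111 (27.0%) for other genes of the pathway, 5 of 68 (7.35%) for ribosomal protein genes and 1 of 23 (4.35%) for cell-cycle genes. The 16 members were Fbl, Dkc1, Utp18, Utp20, Nat10, Bysl, Pno1, Ltv1, Tsr1, Rrp12, Nop2, Pes1, Ddx18, Noc3l, Gnl3 and Mybbp1a, and Utp18 and Mybbp1a each had it more than once. Of the 18 hexamers, 15 (83.3%) began within 100 bases of the gene start, against 636 of 1101 (57.8%) over all tested genes. These shares describe letters in a window and were not tested, and the hexamer is no evidence of binding in these cells.

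The windows below come from the 8 members that carry the hexamer and whose level in every library is given in the role paragraphs, and they show how close it lies to the gene start. Each gives 12 bases on either side, 5′ to 3′ on the gene's strand, in GRCr8 coordinates, with the hexamer in capitals. Counted from the gene start as 0, the hexamer began at base 21 in Fbl, -184 in Dkc1, -127 in Utp20, 1 in Pno1, 20 in Tsr1, 3 in Rrp12, -13 in Ddx18 and 18 in Noc3l.
Fbl, chr1:92597416-92597445, plus strand: ggcgcttttttcCACGTGtgaaagcctgag
Dkc1, chrX:157751455-157751484, plus strand: agcgtcccggcgCACGTGcgggccccaccc
Utp20, chr7:25102959-25102988, minus strand: cagcactagctaCACGTGagaaaaagcaga
Pno1, chr14:95819885-95819914, minus strand: ggcacaacctcgCACGTGttccagtggttg
Tsr1, chr10:60258798-60258827, plus strand: gtttactcggtgCACGTGggcagttagaat
Rrp12, chr1:250655298-250655327, minus strand: gctgagaatacaCACGTGggttctgctgtg
Ddx18, chr13:35295968-35295997, minus strand: ctcggaactgcgCACGTGcatctgtcgctc
Noc3l, chr1:245997673-245997702, minus strand: ttgagctctgggCACGTGtgtgtttcctac

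Pno1 and Npm1 illustrate both kinds of promoter, since Pno1 has the hexamer at its start and Npm1, the most abundant member, has none in its window. Both are shown whole, 5′ to 3′ on the gene's strand in GRCr8 coordinates, with the hexamer in capitals.
Pno1, chr14:95819854-95820153, minus strand: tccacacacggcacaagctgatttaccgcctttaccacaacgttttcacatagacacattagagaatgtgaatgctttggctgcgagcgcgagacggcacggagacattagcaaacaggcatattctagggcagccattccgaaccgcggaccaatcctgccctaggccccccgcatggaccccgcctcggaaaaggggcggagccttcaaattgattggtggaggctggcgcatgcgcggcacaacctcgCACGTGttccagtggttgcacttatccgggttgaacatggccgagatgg
Npm1, chr10:18255692-18255991, minus strand: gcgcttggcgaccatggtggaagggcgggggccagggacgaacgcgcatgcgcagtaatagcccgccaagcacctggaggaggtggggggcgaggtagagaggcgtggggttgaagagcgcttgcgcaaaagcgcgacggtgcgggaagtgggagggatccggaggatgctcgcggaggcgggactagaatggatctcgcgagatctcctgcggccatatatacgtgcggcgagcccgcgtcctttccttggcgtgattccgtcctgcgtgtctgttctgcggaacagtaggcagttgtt

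The members were then split by the hexamer, as a description. Between co-cultured and IL-1β cells the median log2 difference was 0.16 over the 16 members with it and 0.15 over the 29 without it, and limma called 11 of 16 and 14 of 29 higher. Between IL-1β and control cells the medians were -0.07 with it and -0.02 without it, and 7 of 16 and 7 of 29 were called lower. Over all tested genes 11.9% were called higher in the first of these comparisons and 20.2% lower in the second.

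**Figure D3:**
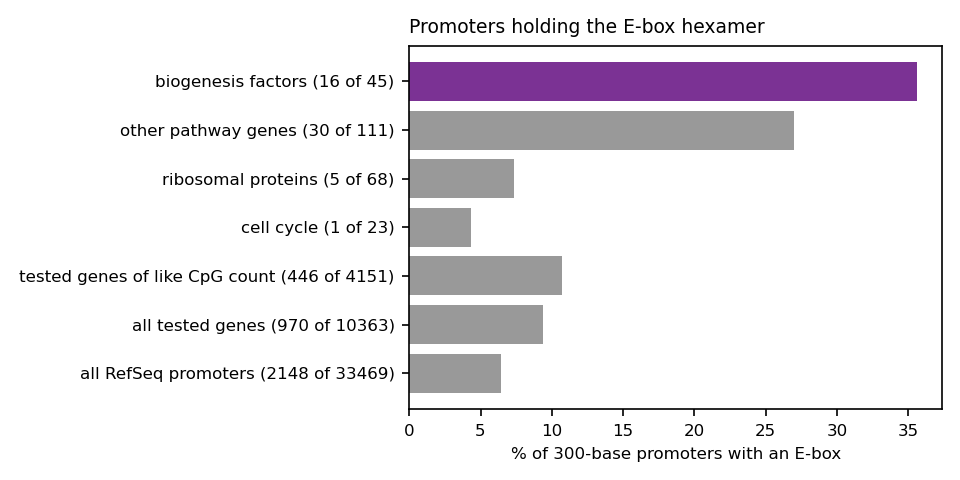
Bars give the percentage of 300-base promoters that hold CACGTG at least once, with the number of promoters in each set in its label. The biogenesis factors stand at 35.6% and the other pathway genes at 27.0%, while ribosomal protein genes, cell-cycle genes and the 3 wider sets lie between 4.35% and 10.7%.

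RNA polymerase I was represented by Polr1a and Polr1b, its large catalytic subunits, Polr1c, a subunit shared with RNA polymerase III, Polr1e, a subunit that helps recruit and elongate, and Rrn3, the initiation factor that brings the polymerase to the promoter. In co-cultured against IL-1β cells 2 of 5, Polr1b and Polr1e, passed as higher and 0 as lower. Of all tested genes 11.9% were called higher and 10.1% lower in that comparison. In IL-1β against control cells 0 of 5 passed in either direction with limma on deposited FPKM, also at an unadjusted p under 0.05, where 26.5% of all tested genes were called higher and 20.2% lower. On the common sum 1 of 5, Polr1e, passed as lower (log2 -0.20 ± 0.065 SE), against 27.2% of all tested genes. The levels of Polr1e were 19.3, 16.3 and 17.5 FPKM in co-cultured cells, 15.3, 13.2 and 14.2 FPKM in IL-1β cells and 15.2, 15.6 and 16.4 FPKM in control cells. The co-cultured libraries all lay above the IL-1β libraries, the control range overlapped both, and the log2 difference between co-cultured and IL-1β cells was 0.29 ± 0.069 SE (SE is the standard error from limma). Polr1c was the most abundant of the 5. For Polr1c the co-cultured libraries stood at 51.5, 50.8 and 50.2 FPKM, the IL-1β libraries at 52.6, 48.8 and 50.6 FPKM and the control libraries at 48.6, 50.5 and 49.05 FPKM. Its 3 ranges overlapped throughout. Rrn3 had 31.9, 38.4 and 35.4 FPKM in co-cultured cells, against 34.7, 35.04 and 38.9 FPKM in IL-1β cells and 36.5, 36.4 and 34.3 FPKM in control cells. The 3 ranges of Rrn3 overlapped, and its log2 difference between co-cultured and IL-1β cells was -0.039 ± 0.066 SE. Polr1b averaged 12.2 ± 0.531 FPKM in co-cultured, 10.1 ± 0.194 FPKM in IL-1β and 10.3 ± 0.382 FPKM in control cells (SD, n = 3 each).

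Genes for proteins of the RNA modification particles gave 6 members. Fbl (fibrillarin, the methyltransferase), Nop56 and Nop58 are core proteins of box C/D snoRNPs, Dkc1 (dyskerin) is the pseudouridine synthase of H/ACA snoRNPs, Nolc1 is a chaperone of both kinds, and Rrp9 belongs to the particle that guides the first cleavages of the precursor. All but Dkc1 (5 of 6) passed as higher in co-cultured against IL-1β cells, against 11.9% of all tested genes. In IL-1β against control cells 3 of 6 (Nop56, Nop58 and Rrp9) passed as lower and Nolc1 as higher. Of all tested genes 20.2% were called lower and 26.5% higher there. On the common sum 4 of 6 passed as lower there, Fbl with them, against 27.2% of all tested genes. The levels of Nop58 were 128, 131 and 138 FPKM in co-cultured cells, 113, 111 and 111 FPKM in IL-1β cells and 128, 129 and 124 FPKM in control cells. The IL-1β libraries lay below all others and the co-cultured and control ranges met, with a log2 difference of 0.24 ± 0.031 SE between co-cultured and IL-1β cells. For Rrp9 the co-cultured libraries stood at 38.6, 37.2 and 39.01 FPKM, the IL-1β libraries at 34.2, 32.99 and 30.4 FPKM and the control libraries at 38.5, 39.6 and 41.2 FPKM. For Rrp9 too every IL-1β library lay below every library of the other groups, with log2 differences of 0.23 ± 0.046 SE for co-cultured against IL-1β and -0.28 ± 0.046 SE for IL-1β against control cells. Fbl had 209, 208 and 203 FPKM in co-cultured cells, against 191, 177 and 178 FPKM in IL-1β cells and 181, 192 and 183 FPKM in control cells. Fbl, the most abundant of these genes, was higher in every co-cultured library than in any other library. The levels of Nolc1 were 74.5, 75.2 and 72.7 FPKM in co-cultured cells, 68.5, 68.2 and 67.3 FPKM in IL-1β cells and 63.6, 64.2 and 64.95 FPKM in control cells. Nolc1 was ordered differently, with the control libraries lowest. Its call in IL-1β against control cells, at a log2 difference of 0.081 ± 0.026 SE, ended on the common sum (0.02) and without control replicate 1 (0.07), control replicate 2 (0.08), IL-1β replicate 1 (0.08) or IL-1β replicate 2 (0.08). It also ended with quantile normalization and median-of-ratios scaling (0.05 each), and, at an unmoved log2 difference, with no mean-variance trend or with the replicate number as a block. For Dkc1 the co-cultured libraries stood at 63.3, 59.7 and 55.7 FPKM, the IL-1β libraries at 53.7, 55.7 and 56.3 FPKM and the control libraries at 55.7, 57.8 and 55.4 FPKM. Dkc1 ranges overlapped between co-cultured and IL-1β cells.

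The small-subunit processome, the large particle that forms on the precursor's leading end, contributed 11 members. Heatr1, Utp15 and Wdr43 belong to the subcomplex that also aids transcription of the precursor, Utp14a, Utp18 and Utp20 are further processome components, Nop14 and Noc4l form a pair, Ddx10 and Ddx52 are RNA helicases, and Nat10 acetylates ribosomal RNA. Of the 11, 4 (Utp14a, Utp20, Wdr43 and Nat10; 36.4%) passed as higher in co-cultured against IL-1β cells, against 11.9% of all tested genes. In IL-1β against control cells 3 of 11 (Utp18, Utp20 and Wdr43; 27.3%) passed as lower, where the share over all tested genes was 20.2%. On the common sum 5 of 11 (45.5%) passed as lower there, Nop14 and Nat10 with them, against 27.2% of all tested genes. Wdr43 had 42.4, 43.5 and 43.7 FPKM in co-cultured cells, against 37.8, 38.2 and 37.03 FPKM in IL-1β cells and 42.8, 42.5 and 40.5 FPKM in control cells. The IL-1β libraries lay below all others, with a log2 difference of 0.19 ± 0.032 SE between co-cultured and IL-1β cells. The levels of Utp20 were 8.71, 8.81 and 9.26 FPKM in co-cultured cells, 7.26, 7.81 and 7.81 FPKM in IL-1β cells and 8.79, 8.57 and 8.71 FPKM in control cells. Utp20 was ordered like Wdr43, with log2 differences of 0.20 ± 0.046 SE for co-cultured against IL-1β and -0.17 ± 0.046 SE for IL-1β against control cells. For Noc4l the co-cultured libraries stood at 19.6, 18.1 and 14.9 FPKM, the IL-1β libraries at 14.2, 14.7 and 15.5 FPKM and the control libraries at 14.4, 15.2 and 16.2 FPKM. Noc4l had the largest mean difference of the role (log2 0.22 ± 0.086 SE) but co-culture replicate 3 lay within the IL-1β range, and it did not pass. Heatr1 had 4.96, 5.96 and 5.54 FPKM in co-cultured cells, against 5.01, 6.200 and 4.85 FPKM in IL-1β cells and 6.35, 5.14 and 5.52 FPKM in control cells. The levels of Utp15 were 18.04, 21.03 and 20.1 FPKM in co-cultured cells, 16.8, 18.4 and 18.02 FPKM in IL-1β cells and 18.2, 17.5 and 17.3 FPKM in control cells. The 3 ranges of Heatr1, the least abundant member, overlapped, and for Utp15 the lowest co-cultured library lay within the IL-1β range.

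Late maturation of the small subunit was covered by Bysl and Pno1, which sit on the assembling head and platform, Tsr1, a GTPase-like factor that blocks early translation factor binding, Ltv1, an export factor, Nob1, the endonuclease that makes the final cut of the small-subunit RNA, and Rrp12, a repeat protein needed for nuclear export. In co-cultured against IL-1β cells 4 of 6 (Bysl, Pno1, Tsr1 and Rrp12) passed as higher, against 11.9% of all tested genes. In IL-1β against control cells 3 of 6 (Bysl, Pno1 and Rrp12) passed as lower and 1 (Tsr1) as higher, on both scales. Of all tested genes 20.2% were called lower and 26.5% higher there on deposited FPKM. On the common sum these shares were 27.2% and 19.2%. For Rrp12 the co-cultured libraries stood at 12.7, 11.4 and 11.9 FPKM, the IL-1β libraries at 9.86, 9.92 and 9.41 FPKM and the control libraries at 11.9, 11.4 and 12.3 FPKM. The IL-1β libraries lay apart below the other 6, whose ranges overlapped, and the log2 differences were 0.28 ± 0.05 SE for co-cultured against IL-1β and -0.26 ± 0.05 SE for IL-1β against control cells. Pno1 had 98.5, 99.4 and 98.3 FPKM in co-cultured cells, against 84.9, 84.01 and 79.8 FPKM in IL-1β cells and 86.8, 88.9 and 91.2 FPKM in control cells. For Pno1, whose promoter is shown above, the 3 groups did not overlap at all, with co-cultured highest and IL-1β lowest. Its call in IL-1β against control cells (log2 -0.10 ± 0.031 SE) ended without control replicate 2 (-0.10), control replicate 3 (-0.08) or IL-1β replicate 3 (-0.07), and with no mean-variance trend. The levels of Tsr1 were 65.3, 68.1 and 65.4 FPKM in co-cultured cells, 61.5, 59.7 and 60.7 FPKM in IL-1β cells and 54.9, 50.7 and 52.8 FPKM in control cells. Tsr1 stood apart from the usual order, since its control libraries were lowest, and it passed as higher in IL-1β against control cells at a log2 difference of 0.20 ± 0.035 SE. Its call in co-cultured against IL-1β cells (log2 0.13 ± 0.035 SE) ended without IL-1β replicate 2 (0.12), IL-1β replicate 3 (0.13) or co-culture replicate 2 (0.11), and, at an unmoved log2 difference, with the replicate number as a block or with no mean-variance trend. For Nob1 the co-cultured libraries stood at 49.9, 52.4 and 55.5 FPKM, the IL-1β libraries at 47.4, 52.5 and 51.7 FPKM and the control libraries at 49.3, 49.8 and 48.8 FPKM. Nob1 ranges overlapped between co-cultured and IL-1β cells.

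Large-subunit assembly gave the largest role, with 16 members. Bop1, Pes1 and Wdr12 form the PeBoW complex, Nop2 methylates the large-subunit RNA, Nol9 is a polynucleotide kinase of the spacer RNA, Nmd3 is the export adaptor, Gnl2 is a GTPase, Ddx18 is an RNA helicase, and Nop16, Rrp1b, Rrs1, Wdr74, Nip7, Noc2l, Noc3l and Brix1 are assembly factors. In co-cultured against IL-1β cells 7 of 16 (Nop2, Rrp1b, Rrs1, Wdr12, Ddx18, Brix1 and Nol9) passed as higher, and all 16 had positive log2 differences. That share was 43.8%, against 11.9% of all tested genes. In IL-1β against control cells 2 of 16 (Wdr74 and Ddx18; 12.5%) passed as lower and 1 (Nop16; 6.25%) as higher. Both shares lay below the 20.2% and 26.5% of all tested genes. On the common sum 3 (18.8%) passed as lower there, Nip7 with them, and 0 as higher, against 27.2% and 19.2%. Ddx18 had 51.5, 53.2 and 54.2 FPKM in co-cultured cells, against 45.3, 45.1 and 44.8 FPKM in IL-1β cells and 49.1, 49.5 and 49.8 FPKM in control cells. The 3 groups of Ddx18 did not overlap, with co-cultured highest and IL-1β lowest, at log2 differences of 0.23 ± 0.028 SE for co-cultured against IL-1β and -0.13 ± 0.028 SE for IL-1β against control cells. The levels of Nop16 were 101, 102 and 95.9 FPKM in co-cultured cells, 97.7, 93.1 and 91.3 FPKM in IL-1β cells and 79.2, 88.2 and 84.2 FPKM in control cells. Nop16 was lowest in control cells. It passed as higher in IL-1β against control cells on deposited FPKM (log2 0.16 ± 0.044 SE) and not on the common sum (0.10). For Wdr74 the co-cultured libraries stood at 48.5, 46.8 and 45.8 FPKM, the IL-1β libraries at 44.9, 43.4 and 42.6 FPKM and the control libraries at 54.1, 53.1 and 49.5 FPKM. Wdr74 was highest in control cells, with every control library above every other library. It was the only member called lower in co-cultured against control cells (log2 -0.15 ± 0.041 SE), a call that ended without control replicate 1 (-0.12), control replicate 2 (-0.14), co-culture replicate 2 (-0.14) or co-culture replicate 3 (-0.13). Noc3l had 16.2, 17.8 and 17.7 FPKM in co-cultured cells, against 16.97, 15.5 and 18.1 FPKM in IL-1β cells and 17.3, 15.9 and 16.4 FPKM in control cells. Noc3l ranges overlapped in all comparisons. Of the PeBoW members, Wdr12 passed as higher in co-cultured against IL-1β cells, and the log2 differences were 0.077 ± 0.044 SE for Bop1, 0.077 ± 0.043 SE for Pes1 and 0.18 ± 0.033 SE for Wdr12.

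The nucleolar scaffold and regulator genes included the most abundant members. Npm1 (nucleophosmin) builds the outer layer of the nucleolus, Ncl (nucleolin) binds the precursor RNA, Ddx21 is an RNA helicase that couples RNA polymerase I and processing, Mybbp1a regulates precursor transcription, and Gnl3 (nucleostemin) and Gnl3l are related GTPases. Of these 6, 5 (83.3%) passed as higher in co-cultured against IL-1β cells, all but Gnl3l, against 11.9% of all tested genes. In IL-1β against control cells 4 of 6 (Ncl, Npm1, Mybbp1a and Ddx21; 66.7%) passed as lower, against 20.2% of all tested genes. The levels of Npm1 were 1658, 1664 and 1709 FPKM in co-cultured cells, 1413, 1408 and 1375 FPKM in IL-1β cells and 1525, 1534 and 1515 FPKM in control cells. For Ncl the co-cultured libraries stood at 543, 581 and 579 FPKM, the IL-1β libraries at 472, 469 and 462 FPKM and the control libraries at 506, 492 and 518 FPKM. For both, the 3 groups did not overlap, with co-cultured highest and IL-1β lowest. The log2 difference between co-cultured and IL-1β cells was 0.26 ± 0.024 SE for Npm1 and 0.28 ± 0.033 SE for Ncl. The Ncl call in IL-1β against control cells (log2 -0.11 ± 0.033 SE) ended without control replicate 3 (-0.09) or IL-1β replicate 3 (-0.10). Reads of Npm1, which has processed copies in mammalian genomes, could be split between copies, so its level is less certain than that of the others. Ddx21 had 75.7, 82.3 and 81.1 FPKM in co-cultured cells, against 66.5, 67.6 and 67.4 FPKM in IL-1β cells and 77.2, 76.7 and 76.98 FPKM in control cells. The IL-1β libraries of Ddx21 were lowest, while co-cultured and control ranges met. The levels of Gnl3l were 25.1, 26.9 and 24.8 FPKM in co-cultured cells, 26.5, 25.5 and 27.2 FPKM in IL-1β cells and 26.6, 23.2 and 24.8 FPKM in control cells. Gnl3l, with overlapping ranges in all 3 comparisons, was 1 of the 2 members (with Rrn3) that had a lower mean in co-cultured than in IL-1β cells, on both scales.

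**Figure D4:**
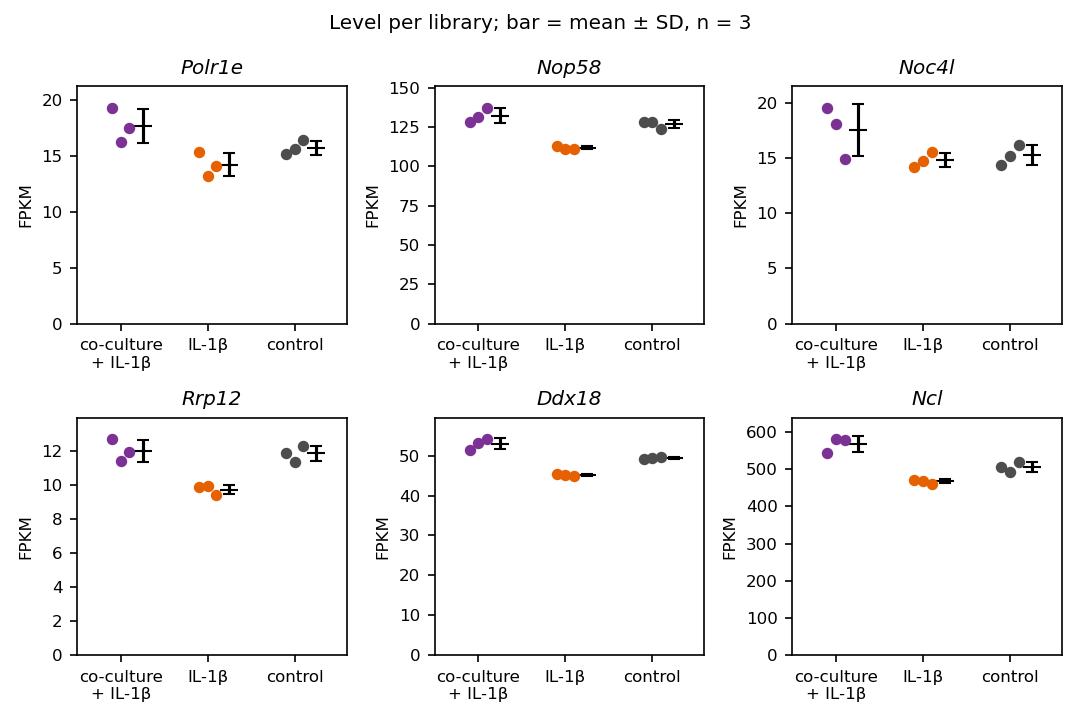
Each panel shows 1 member, the one with the highest log2 difference of its role between co-cultured and IL-1β cells, with FPKM per library as points and mean ± SD (n = 3) as bars, co-culture left, IL-1β middle and control right, on axes that start at 0. The IL-1β libraries are lowest for Nop58, Rrp12, Ddx18 and Ncl, while Polr1e has overlapping IL-1β and control libraries and Noc4l overlaps in all groups.

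The rest of the pathway was read from lists of 123 further genes. Means of these and later genes are given ± SD over the 3 libraries of a group. In co-cultured against IL-1β cells 30 of 123 (24.4%) passed limma as higher and 2 (1.63%) as lower, with a median log2 difference of 0.09. Over all tested genes 11.9% were called higher and 10.1% lower. In IL-1β against control cells 16 (13.0%) passed as higher and 19 (15.4%) as lower on deposited FPKM, both below the 26.5% and 20.2% of all tested genes. On the common sum 7 (5.69%) passed as higher and 36 (29.3%) as lower there, against 19.2% and 27.2% of all tested genes. In co-cultured against control cells 37 (30.1%) passed as higher and 1 (0.813%) as lower on deposited FPKM, against 21.8% and 12.2% of all tested genes. On the common sum 15 (12.2%) passed as higher and 6 (4.88%) as lower there, against 13.1% and 17.1% of all tested genes. For co-cultured against IL-1β cells the higher count was 17 without IL-1β replicate 3 and 19 without co-culture replicate 3. In IL-1β against control cells the lower count was 12 without IL-1β replicate 3, and in co-cultured against control cells the higher count was 24 without co-culture replicate 3.

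Of 15 further genes of RNA polymerase I, 5 (33.3%) passed as higher in co-cultured against IL-1β cells, against 11.9% of all tested genes. These were Polr1d, Twistnb, Cd3eap, Taf1d and Ubtf. Taf1d, a subunit of the promoter selectivity factor, averaged 38.5 ± 1.29 FPKM in co-cultured, 28.8 ± 1.96 FPKM in IL-1β and 35.5 ± 1.15 FPKM in control cells, with a log2 difference of 0.41 ± 0.05 SE between co-cultured and IL-1β cells (limma, adjusted p = 0.000344). Cd3eap, an older symbol of the subunit Polr1g, which pairs with Polr1e, averaged 31.3 ± 1.03 FPKM in co-cultured, 24.8 ± 0.59 FPKM in IL-1β and 26.9 ± 0.255 FPKM in control cells (limma, adjusted p = 0.000153 for co-cultured against IL-1β cells). The architectural factor Ubtf averaged 36.7 ± 0.601 FPKM in co-cultured, 32.5 ± 1.37 FPKM in IL-1β and 37.4 ± 0.572 FPKM in control cells, lower in IL-1β than in control cells (log2 -0.20 ± 0.036 SE, limma adjusted p = 0.00139) and higher in co-cultured than in IL-1β cells (limma, adjusted p = 0.00812). Polr2e, a subunit shared by all nuclear polymerases, was instead higher in IL-1β than in control cells, at 144 ± 5.52 FPKM in co-cultured, 149.6 ± 6.94 FPKM in IL-1β and 121 ± 1.66 FPKM in control cells (limma, adjusted p = 0.000131).

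Of 13 further snoRNP genes, 4 (30.8%) passed as higher in co-cultured against IL-1β cells, against 11.9% of all tested genes. These were Nhp2, Gar1, Ruvbl1 and Znhit6. Znhit6, a box C/D assembly factor, averaged 42.5 ± 1.49 FPKM in co-cultured, 35.1 ± 0.816 FPKM in IL-1β and 46.8 ± 2.33 FPKM in control cells, with a log2 difference of -0.40 ± 0.043 SE for IL-1β against control cells (limma, adjusted p = 3.15e-05) and of 0.27 ± 0.043 SE for co-cultured against IL-1β cells (limma, adjusted p = 0.00174). Ruvbl1 and Ruvbl2, partner ATPases that assemble snoRNPs among many other complexes, differed in direction between IL-1β and control cells. Ruvbl1 was lower (log2 -0.14 ± 0.043 SE, limma adjusted p = 0.0215, a call that ended without control replicate 2 at -0.09 or IL-1β replicate 3 at -0.13) and Ruvbl2 higher (log2 0.31 ± 0.035 SE, limma adjusted p = 5.39e-05), on both scales. Nop10, an H/ACA core protein, was also higher in IL-1β than in control cells (log2 0.34 ± 0.047 SE, limma adjusted p = 0.000199) and averaged 136 ± 3.2 FPKM in co-cultured, 135 ± 8.42 FPKM in IL-1β and 106 ± 4.65 FPKM in control cells.

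Of 45 further small-subunit genes, 8 (17.8%) passed as higher in co-cultured against IL-1β cells and 2 (4.44%), Imp3 and Rcl1, as lower. Over all tested genes 11.9% were called higher and 10.1% lower. Rcl1, a factor of early precursor cleavage, averaged 31.1 ± 1.01 FPKM in co-cultured, 35.9 ± 0.824 FPKM in IL-1β and 23.4 ± 1.44 FPKM in control cells, at log2 differences of 0.60 ± 0.046 SE for IL-1β against control cells (limma, adjusted p = 3.18e-06) and -0.20 ± 0.046 SE for co-cultured against IL-1β cells (limma, adjusted p = 0.0122). This order, with IL-1β cells highest, is the opposite of that of Ngdn, a processome protein that averaged 36.3 ± 1.23 FPKM in co-cultured, 31.7 ± 1.55 FPKM in IL-1β and 38.9 ± 1.34 FPKM in control cells (limma, adjusted p = 0.000422 for IL-1β against control and 0.013 for co-cultured against IL-1β cells). Pwp2, a scaffold of the processome, averaged 29.2 ± 1.65 FPKM in co-cultured, 25.2 ± 0.314 FPKM in IL-1β and 27.9 ± 0.534 FPKM in control cells and passed as higher in co-cultured against IL-1β cells (log2 0.20 ± 0.042 SE, limma adjusted p = 0.00697), as did Lyar at 46.6 ± 3.14 FPKM in co-cultured, 40.02 ± 0.426 FPKM in IL-1β and 42.2 ± 0.657 FPKM in control cells (limma, adjusted p = 0.00691).

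Of 50 further large-subunit genes, 13 (26.0%) passed as higher in co-cultured against IL-1β cells and 0 as lower with limma. The shares of all tested genes were 11.9% and 10.1%. At an unadjusted limma p under 0.05 the counts were 23 and 1. Npm3, a relative of Npm1, averaged 125 ± 3.81 FPKM in co-cultured, 98.5 ± 3.19 FPKM in IL-1β and 133 ± 1.47 FPKM in control cells, with log2 differences of -0.43 ± 0.032 SE for IL-1β against control cells (limma, adjusted p = 2.86e-06) and 0.34 ± 0.032 SE for co-cultured against IL-1β cells (limma, adjusted p = 7.01e-05). Rrp15 was also lowest in IL-1β cells, at 44.3 ± 1.52 FPKM in co-cultured, 36.9 ± 1.12 FPKM in IL-1β and 43.8 ± 1.54 FPKM in control cells (limma, adjusted p = 0.00125 for co-cultured against IL-1β cells). Ftsj3, a methyltransferase of the precursor, averaged 52.7 ± 0.976 FPKM in co-cultured, 45.7 ± 0.985 FPKM in IL-1β and 45.7 ± 1.04 FPKM in control cells and was higher in co-cultured cells than in either other group (limma, adjusted p = 0.00139 against IL-1β and 0.000796 against control cells). Eif6, which keeps the new large subunit from joining too early, averaged 143 ± 4.15 FPKM in co-cultured, 145 ± 4.34 FPKM in IL-1β and 129 ± 3.32 FPKM in control cells and was higher in IL-1β than in control cells (limma, adjusted p = 0.0024).

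Ribosomal proteins are the parts that the members assemble. Of 87 tested, 9 (10.3%) passed as higher and 0 as lower in co-cultured against IL-1β cells with limma (14 and 1 at an unadjusted p under 0.05). The shares of all tested genes were 11.9% and 10.1%. In IL-1β against control cells 23 (26.4%) passed as higher and 1 (1.15%), Rps20, as lower on deposited FPKM. Of all tested genes 26.5% were called higher and 20.2% lower there. On the common sum 11 (12.6%) passed as higher and 7 (8.05%) as lower, against 19.2% and 27.2%. In co-cultured against control cells 40 (46.0%) passed as higher and 0 as lower, against 21.8% and 12.2% of all tested genes, with a median log2 difference of 0.12. On the common sum 16 (18.4%) passed as higher and 3 as lower there, against 13.1% and 17.1% of all tested genes. Their summed share of the library was 25.0% ± 0.0924 in co-cultured, 24.2% ± 0.536 in IL-1β and 24.3% ± 0.227 in control cells (SD, n = 3 each). These genes have many near-identical processed copies, so single values are uncertain. The difference between this list and the members was not tested.

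**Figure D5:**
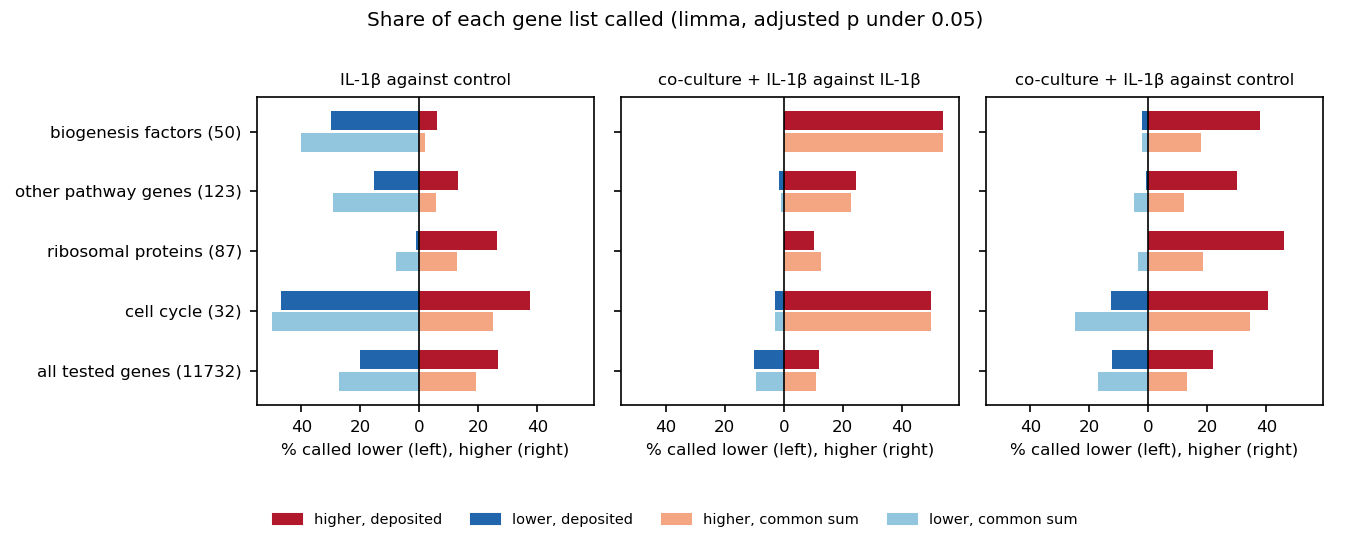
Bars give the percentage of each gene list that limma called higher (right of 0) or lower (left of 0) in the 3 comparisons, dark for deposited FPKM and light for libraries scaled to a common sum, with the number of genes tested in each label. In the co-culture against IL-1β panel the biogenesis factors reach 54.0% higher on both scales, against 11.9% of all tested genes on deposited FPKM. In the other 2 panels the share called higher is smaller on the common sum for each of the 4 lists drawn and for all tested genes.

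Myc mRNA was ordered differently from most members. Myc averaged 58.7 ± 1.71 FPKM in co-cultured, 59.9 ± 0.437 FPKM in IL-1β and 52.2 ± 1.12 FPKM in control cells, and was higher in IL-1β than in control cells (log2 0.19 ± 0.03 SE, limma adjusted p = 0.000514), where 15 members were lower. Between co-cultured and IL-1β cells the log2 difference was -0.029 ± 0.03 SE (limma, adjusted p = 0.551). Of 10 tested genes of the Myc network, 0 passed limma as higher and 2, Mxi1 and Mxd4, as lower in co-cultured against IL-1β cells. The counts were the same at an unadjusted limma p under 0.05. Of all tested genes 11.9% were called higher and 10.1% lower there. Whether the network's counts differ from those shares was not tested. Mxi1, a Max partner that represses Myc targets, averaged 16.4 ± 0.55 FPKM in co-cultured, 21.2 ± 0.951 FPKM in IL-1β and 10.2 ± 0.221 FPKM in control cells, with log2 differences of 0.99 ± 0.044 SE for IL-1β against control cells (limma, adjusted p = 4.74e-08) and -0.36 ± 0.044 SE for co-cultured against IL-1β cells (limma, adjusted p = 0.000374). Mxi1 was highest in IL-1β cells. Mxd3, of the same family of Max partners, averaged 16.8 ± 2.11 FPKM in co-cultured, 15.2 ± 0.651 FPKM in IL-1β and 19.1 ± 0.308 FPKM in control cells, and passed as lower in IL-1β than in control cells (log2 -0.31 ± 0.075 SE, limma adjusted p = 0.00716) but not between co-cultured and IL-1β cells (limma, adjusted p = 0.243). Of 11 other growth genes linked to Myc, 4 (36.4%) passed limma as higher and 0 as lower in co-cultured against IL-1β cells, against 11.9% and 10.1% of all tested genes. At an unadjusted limma p under 0.05 the counts were 5 and 0. In IL-1β against control cells 6 (54.5%) passed as higher and 3 (27.3%) as lower, against 26.5% and 20.2% of all tested genes. On the common sum 2 (18.2%) passed as higher in co-cultured against IL-1β cells, against 10.9% of all tested genes, since the calls of Cad and Ppat ended. Among them Eif4e, the cap-binding translation factor, averaged 118 ± 5.63 FPKM in co-cultured, 102 ± 1.58 FPKM in IL-1β and 115 ± 1.3 FPKM in control cells, higher in co-cultured than in IL-1β cells (limma, adjusted p = 0.00252), and Ldha, lactate dehydrogenase, averaged 2471 ± 11.8 FPKM in co-cultured, 2473 ± 45.1 FPKM in IL-1β and 2025 ± 36 FPKM in control cells, higher in IL-1β than in control cells (limma, adjusted p = 7.71e-06).

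Cell-cycle genes differed between the groups too. Of 32 tested, 16 passed limma as higher and 1 (Ccne1) as lower in co-cultured against IL-1β cells. Over all tested genes 11.9% were called higher and 10.1% lower there, and of the members 54.0% were called higher. In IL-1β against control cells 15 passed as lower and 12 as higher, against 20.2% and 26.5% of all tested genes. On the common sum these counts were 16 and 8, against 27.2% and 19.2%. Cdc20, an activator of mitotic exit, averaged 153 ± 4.3 FPKM in co-cultured, 119 ± 4.7 FPKM in IL-1β and 173 ± 2.6 FPKM in control cells, with log2 differences of -0.54 ± 0.034 SE for IL-1β against control cells (limma, adjusted p = 7.47e-07) and 0.36 ± 0.034 SE for co-cultured against IL-1β cells (limma, adjusted p = 6.61e-05). Plk1, a mitotic kinase, averaged 83.5 ± 0.85 FPKM in co-cultured, 68.6 ± 2.71 FPKM in IL-1β and 93.9 ± 2.96 FPKM in control cells, in the same order. Ccne1, a cyclin of S-phase entry, ran the other way at 33.5 ± 0.55 FPKM in co-cultured, 40.5 ± 1.61 FPKM in IL-1β and 25.1 ± 0.981 FPKM in control cells (limma, adjusted p = 4.83e-07 for IL-1β against control cells). Whether proliferation has a part in the members' levels was not tested.

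Among tested genes outside the members, those whose level across the 9 libraries was most like the mean of the members were Ltbp1, Nudc, Lama3, Cd3eap and Ranbp1, by Pearson's r of log2(FPKM + 1), a description over libraries that fall into 3 groups. Ltbp1, a matrix protein that binds latent TGF-β, averaged 83.2 ± 0.769 FPKM in co-cultured, 69.3 ± 0.514 FPKM in IL-1β and 73.4 ± 0.788 FPKM in control cells. Nudc, a nuclear distribution and chaperone protein, averaged 185 ± 3.03 FPKM in co-cultured, 162 ± 3.32 FPKM in IL-1β and 168 ± 1.89 FPKM in control cells. Ranbp1, a regulator of nuclear transport, averaged 462 ± 3.72 FPKM in co-cultured, 407 ± 1.69 FPKM in IL-1β and 418 ± 5.65 FPKM in control cells. Lama3, a laminin chain, averaged 4.63 ± 0.18 FPKM in co-cultured, 3.35 ± 0.0819 FPKM in IL-1β and 3.54 ± 0.115 FPKM in control cells. All had their highest mean in co-cultured and their lowest mean in IL-1β cells.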

How the data were processed

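Poly(A) RNA of 9 chondrocyte libraries was sequenced. The authors deposited 1 table of FPKM values per gene and library. The sources used here do not name the aligner, the annotation or the use of strand, and the only genome build in the submitters' processing notes is GRCm38, a mouse build. Of the table's gene identifiers, 16396 of 17588 were found in the RefSeq table of the rat assembly GRCr8. The filter kept 11732 genes that reached an FPKM of 1 in 3 or more libraries. Levels were taken as log2(FPKM + 1), so differences of low genes are understated, and fitted with limma 3.58.1 in R 4.3.3 (1 model over the 9 libraries, mean-variance trend, two-sided tests, Benjamini-Hochberg adjustment over all tested genes, calls at adjusted p under 0.05). The procedure was tested on simulated data. Medians, sums, promoter matches and figures were made in Python 3.11.15.

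The members and the other gene lists were chosen with earlier results of these data known. Per-library values are given, in each role, for the most abundant member and for those with the most positive and the most negative difference in IL-1β against control and co-culture against IL-1β. Of the other lists, up to 2 genes per list, comparison and direction with the smallest p could be named, and Myc. No 2 libraries were identical. Alternatives were a common library sum, quantile and median-of-ratios scaling, a pseudocount of 0.1, no filter, a mean FPKM of at least 5, no trend, only the 6 libraries compared, a replicate block, and each library left out.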

Additional observations from a re-analysis of the deposited data

How the results depend on the processing

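With libraries scaled to a common sum, 1 member was called higher in IL-1β against control cells (3 on deposited FPKM) and 9 in co-cultured against control cells (19), with median member changes of -0.0925 and 0.0305. Of the other pathway genes, 7 were then called higher and 36 lower in IL-1β against control, 1 lower in co-cultured against IL-1β, and 15 higher and 6 lower in co-cultured against control cells. With quantile normalization the other pathway genes called higher in IL-1β against control cells were 10, the medians were -0.0803 (IL-1β against control) and 0.0375 (co-cultured against control), 6 members were called higher in co-cultured against control cells, and 18 other pathway genes were higher and 6 lower there. With median-of-ratios scaling the medians were -0.0532 (IL-1β against control), 0.128 (co-cultured against IL-1β) and 0.0502 (co-cultured against control), and in co-cultured against control cells 12 members were higher and 21 other pathway genes higher and 5 lower. The 2 other pathway genes called lower in co-cultured against IL-1β cells were 1 with no filter, with no trend or with only the 6 libraries compared. The 1 called lower in co-cultured against control cells became 0 with no trend, with only the 6 libraries compared and with the replicate block. The cause of these changes was not tested. Deviations of same-numbered libraries from their group means correlated at -0.0907 to 0.0855 (9 pairs), and those of others at -0.0768 to 0.0887 (18 pairs). With 3 libraries a group these values cannot settle whether the replicate numbers pair the libraries. The replicate block left 25 members called higher in co-cultured against IL-1β cells. Leaving out 1 library at a time gave, for members, 2 to 3 higher and 10 to 14 lower calls and medians of -0.0475 to -0.0253 in IL-1β against control cells, 21 to 27 higher and 0 to 0 lower calls and medians of 0.1372 to 0.1644 in co-cultured against IL-1β cells, and 14 to 19 higher and 0 to 1 lower calls and medians of 0.0847 to 0.1067 in co-cultured against control cells. For other pathway genes it gave 12 to 16 higher and 12 to 15 lower, 17 to 29 higher and 1 to 3 lower, and 24 to 32 higher and 0 to 2 lower calls in the same order of comparisons. Over single members, 2098 of 2250 alternative values kept their side of the threshold, 127 lost a call and 25 gained one. For the other named genes 1847 of 1977 kept their side, 106 lost and 24 gained a call. No value called in the main fit changed direction in either set. The direction of uncalled values was not counted, and some changed sign, such as Polr1a in IL-1β against control cells (0.0071, and -0.0529 on the common sum). With 3 libraries a group and unknown depth, small differences may have been missed, and how small was not tested. Heatr1, the least abundant member, passed in no comparison. Its coefficient of variation was 9.15% in co-cultured, 13.8% in IL-1β and 10.9% in control cells. Utp20, at a mean of 8.41 FPKM, did pass in co-cultured against IL-1β and in IL-1β against control cells.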
